A study of Mus musculus with 4 samples.

Results

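The alcohol dehydrogenase (Adh) cluster of the mouse holds 6 protein-coding genes, Adh7, Adh1, Adh6a, Adh6b, Adh4 and Adh5, on chromosome 3, out of 21755 protein-coding genes annotated on chromosomes 1 to 19 and X. The genes were taken by name and placed into the topologically associating domains (TADs) of AML12 cells grown in 2D or in 3D culture. AML12 is an immortalized hepatocyte line, founded from the liver of a mouse transgenic for human TGF alpha. The 2D-cultured cells grew in dishes and the 3D-cultured cells in Matrigel, with 2 Hi-C libraries per culture, 4 in all, and cells of both cultures were arrested at the G1/S boundary by 1 mM hydroxyurea, which lasted 24 h in 2D and 36 h in 3D. The hydroxyurea time therefore differed along with the culture, and the effects of each cannot be told apart. The authors pooled the replicates before calling TADs, so the data are 1 list of TADs per culture, the 2D list with 4467 entries and the 3D list with 4355, and no value below has a replicate error or a p-value. The lists hold positions only, on a grid of 40 kb bins, and the depth behind a TAD is unknown. They carry no RNA level either, so neither the activity of the Adh genes nor hepatocyte markers could be checked in these files.

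Alcohol dehydrogenases are zinc enzymes that oxidize alcohols to aldehydes or ketones with NAD+. In mammals their genes lie side by side in 1 tandem array that arose by gene duplication, and the liver is the main site of ethanol oxidation. A TAD is a stretch of chromosome whose parts touch each other more often than they touch the sequence on the other side of its borders. Borders are known to lie often at sites bound by the protein CTCF and at active promoters.

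The cluster extended from 138217760 to 138455499 on chromosome 3 (mm10), a length of 238 kb, and all 6 genes were on the plus strand, head to tail, with no other protein-coding gene starting among them. In both cultures 5 of the 6 genes, Adh7 to Adh4, lay in 1 TAD, and Adh5 lay alone of its family in the next. The border between them was at 138440000 in 2D and at the same position in 3D. It fell in the gap of 12.2 kb that separates the end of Adh4 from the start of Adh5, on a grid far coarser than that gap. No other border lay within the cluster in either list. The separation of Adh5 was lost, with all 6 genes in 1 TAD in both lists, when genes were placed by their outermost RefSeq start or when this border was moved 1 bin toward Adh5.

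**Figure D1:**
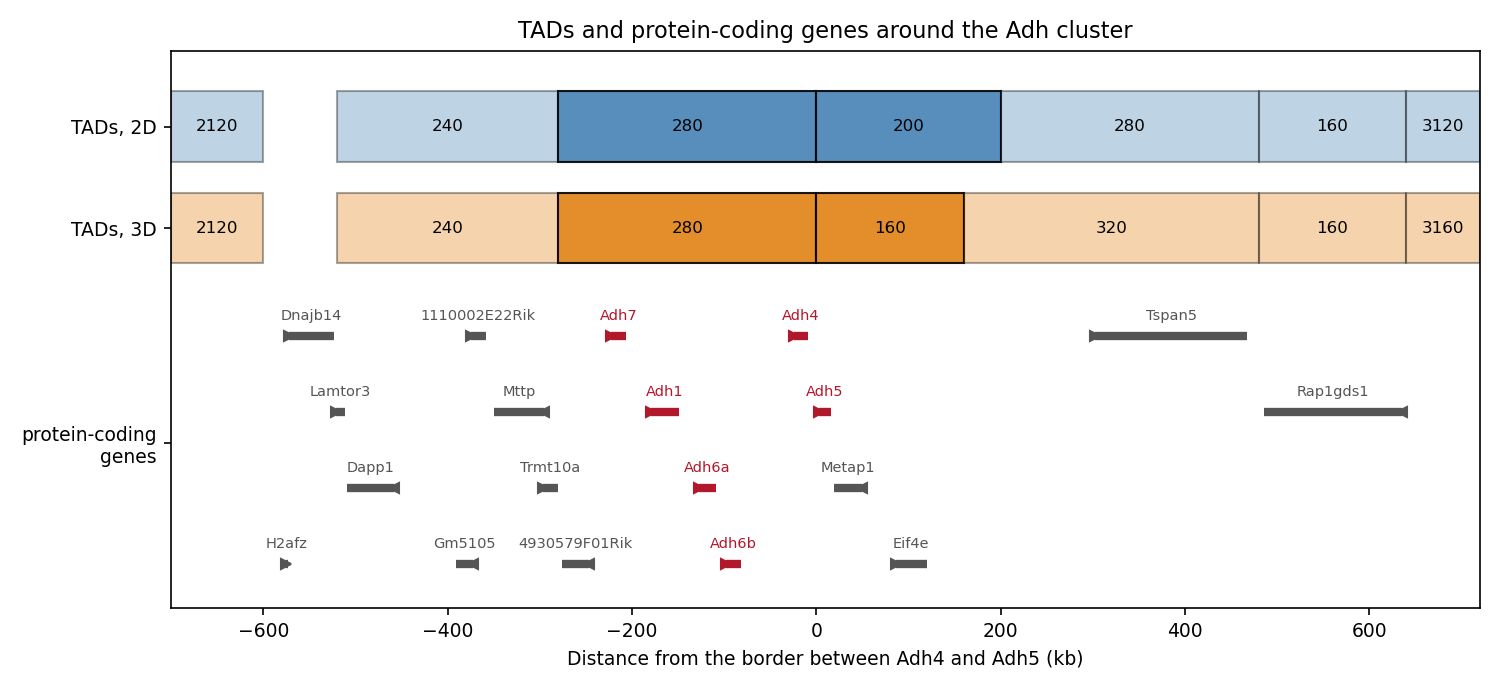
TADs in 2D (upper row) and 3D (lower row) with their whole sizes in kb, above the protein-coding genes (arrowheads at the gene starts give the strand; the 6 Adh genes are red), against the distance in kb from the border between Adh4 and Adh5. The TADs that hold Adh genes are drawn darker. The TAD of 280 kb was the same in both cultures, and the TAD to its right measured 200 kb in 2D and 160 kb in 3D.

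Adh5 encodes the class III enzyme, a glutathione-dependent formaldehyde dehydrogenase that also reduces S-nitrosoglutathione and is found in nearly all tissues, whereas the other genes of the family are known for a more restricted expression. Because the border separated Adh4 from Adh5, the promoter windows nearest to it are shown here, read 5′ to 3′ on the plus strand of GRCm38.p6 (the build of mm10) from 250 bases before to 50 after each RNA start in RefSeq, with CpG dinucleotides in capitals. RefSeq gives Adh5 a pair of RNA starts, whereas all 7 of its GENCODE transcripts, of which 1 is protein-coding, began after the border. The upstream start, at 138437200, lay 2.8 kb on the Adh4 side of the border, and the downstream start, at 138443093, lay 3.09 kb on the other side. The windows are chr3:138415247-138415546 for Adh4, chr3:138436950-138437249 for the upstream and chr3:138442843-138443142 for the downstream start of Adh5.
Adh4: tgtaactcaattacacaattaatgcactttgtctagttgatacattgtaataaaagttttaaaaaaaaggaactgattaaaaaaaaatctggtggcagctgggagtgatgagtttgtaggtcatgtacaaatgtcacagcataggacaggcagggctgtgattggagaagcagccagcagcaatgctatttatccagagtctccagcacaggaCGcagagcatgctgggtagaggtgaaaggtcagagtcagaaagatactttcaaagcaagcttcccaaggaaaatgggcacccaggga
Adh5 upstream start: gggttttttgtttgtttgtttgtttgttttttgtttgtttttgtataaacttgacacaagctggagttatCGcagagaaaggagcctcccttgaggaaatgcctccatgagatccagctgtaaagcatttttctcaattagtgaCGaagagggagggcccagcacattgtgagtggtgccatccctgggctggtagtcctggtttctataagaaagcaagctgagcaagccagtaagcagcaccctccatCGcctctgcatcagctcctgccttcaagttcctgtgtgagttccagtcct
Adh5 downstream start: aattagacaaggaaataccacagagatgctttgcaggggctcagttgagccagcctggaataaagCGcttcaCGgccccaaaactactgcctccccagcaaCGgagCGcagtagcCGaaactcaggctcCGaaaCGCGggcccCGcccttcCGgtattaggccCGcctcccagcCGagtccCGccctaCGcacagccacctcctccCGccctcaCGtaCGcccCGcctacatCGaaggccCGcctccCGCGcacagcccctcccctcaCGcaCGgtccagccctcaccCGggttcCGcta

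The downstream window of Adh5 held 26 CpG dinucleotides, more than 83.1% of all 32817 promoter windows of this length, and its G+C content was 65.0%. The upstream window of Adh5 held 3 and that of Adh4 held 1. Of the genes farther from the border, Adh1 had 6, Adh7 had 3 and Adh6a had 2 CpG dinucleotides, and the median over all windows was 7 (quartiles 3 and 20). The downstream window of Adh5 thus stood apart from the other windows of the family in CpG number. The table of promoters matched 5 of the 6 genes by symbol, all but Adh6b.

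The letters GGGCGG, a GC box, were searched on both strands and found 3 times in the downstream window of Adh5. They were in no other window of the family, against 35.6% of all windows. The letters TATAAA, also searched on both strands and anywhere in the window, were found in the windows of Adh7, Adh6a and the upstream start of Adh5, that is in 3 of 6 windows, against 13.6% of all windows. These matches describe the letters of the windows and do not show that a factor was bound.

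**Figure D2:**
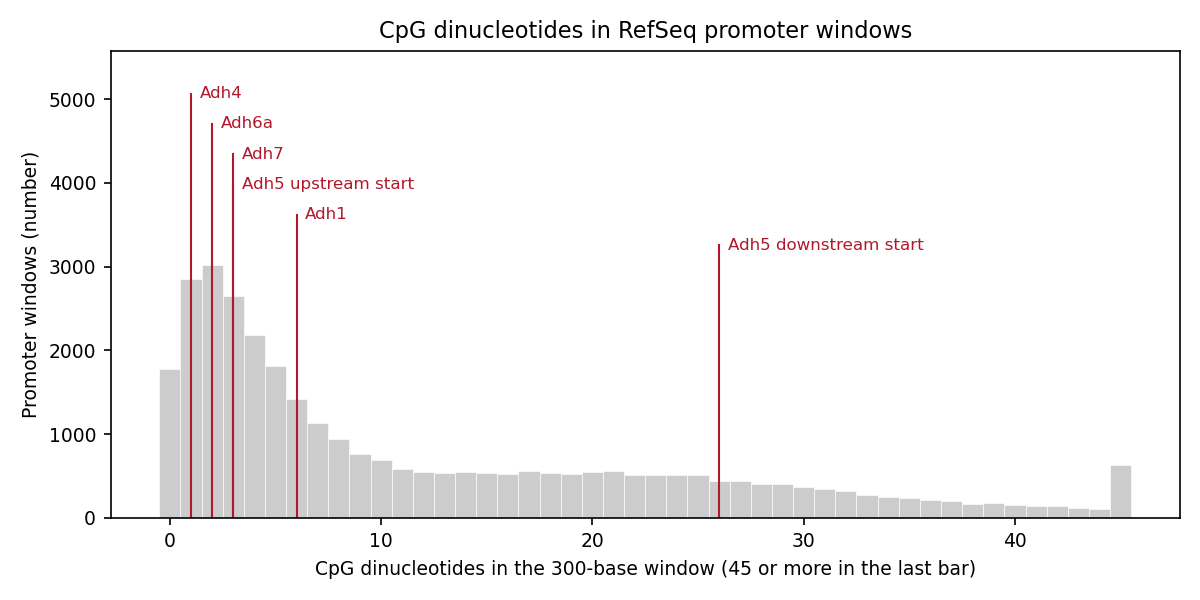
Number of RefSeq promoter windows (grey bars, vertical axis) by their number of CpG dinucleotides in 300 bases (horizontal axis), with the 6 windows of Adh genes as red lines whose heights only separate the labels. The downstream start of Adh5 stood at 26 CpG dinucleotides, and the other 5 windows lay between 1 and 6.

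The TAD that held most of the family extended from 138160001 to 138440000 and measured 280 kb in both lists. Its first gene was 4930579F01Rik, on the minus strand, and Adh7, Adh1, Adh6a, Adh6b and Adh4 followed in this order. Adh7 (ENSMUSG00000055301.8, chr3:138217760-138233382), the class IV enzyme known from the stomach and from retinol oxidation, started 57.8 kb inside the TAD. Its outermost start in RefSeq, at 138198064, lay 19.7 kb before this GENCODE start, in the same TAD. Adh1 (ENSMUSG00000074207.10, chr3:138260991-138290698), the class I enzyme that carries out most of the ethanol oxidation in the liver, started 101.0 kb inside the TAD by the annotation of GENCODE release M21. That start belongs to a transcript not classed as protein-coding, and the first protein-coding transcript of Adh1 started at 138277494. Adh6a (ENSMUSG00000053054.13, chr3:138313286-138331134) and Adh6b (ENSMUSG00000074206.7, chr3:138341775-138358861), neighbouring copies of a less studied class, started 153 and 182 kb inside. Adh4 (ENSMUSG00000037797.14, chr3:138415466-138430892), the class II enzyme of the liver, started 255 kb inside, which left 24.5 kb to the border. The widest gap between successive gene bodies, 56.6 kb, lay between Adh6b and Adh4, and the narrowest, 10.6 kb, between Adh6a and Adh6b. The gap with the border, 12.2 kb, was the second narrowest of the 5.

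The distance from each gene start to the nearest border had the same value in both lists for all 6 genes. It was largest for Adh6a, at 127 kb, in the middle of the TAD. Adh1 followed with 101.0 kb and Adh6b with 98.2 kb, a difference that is small against a bin of 40 kb. Adh7 lay 57.8 kb from the TAD start, Adh4 24.5 kb from the TAD end and Adh5 3.09 kb from its own TAD start. The median of the family was 78.0 kb in both lists, against 53.6 kb over all protein-coding genes in 2D and 58.3 kb in 3D. In all, 3.86% of genes in 2D and 3.73% in 3D lay nearer to a border than Adh5 did. A border is known only to its bin, however, so distances under 40 kb cannot be ranked.

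Measured by bins, Adh4 and Adh5 were the members whose starts lay in a bin touching a border in both lists, 2 of 6, and 32.0% of all protein-coding genes did so. The share of the family was thus near that of the background. Between adjacent genes, 1 of the 5 gaps between successive Adh starts, that from Adh4 to Adh5, contained a border in both lists. Over all 16330 pairs of adjacent protein-coding genes with starts at most 100 kb apart, 11.9% had a border between them in both lists. The 5 spacings in the cluster lay between 27.6 and 73.7 kb. Their median, 43.2 kb, was wider than that of all these pairs, 26.5 kb.

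None of the 6 gene bodies, as annotated by GENCODE, crossed a border in either list, whereas a transcript of Adh5 from the upstream RefSeq start would cross the border at 138440000. Over all protein-coding genes 17.9% did, and among the 5178 genes with lengths in the range of the Adh genes (12.4 to 29.7 kb) the share was 16.9%. At the other end of the 280 kb TAD, the border at 138160000 lay 0.179 kb after the annotated end of Trmt10a, which encodes a tRNA methyltransferase, and 4.08 kb before the nearest base of 4930579F01Rik. By the gene bodies of GENCODE, the TAD therefore began and ended in gaps between protein-coding genes, as far as a grid of 40 kb can place them.

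The placement of the family in 2D was compared with that in 3D by counts, which are set beside the same counts over all genes. All 6 starts lay inside a TAD in both lists, which held for 72.7% of protein-coding genes. For 5 of the 6, Adh7 to Adh4, the TAD had the same start and the same end in both lists, which held for 35.1% of genes. All 6 were in a TAD whose start and end lay within 40 kb of those in the other list, against 49.7% of genes. All 6 also shared their TAD with the same protein-coding genes in both cultures, against 43.3% of genes. The 6 genes are not 6 independent cases, because they lie in only 2 TADs, and these counts describe 2 TADs rather than 6 genes.

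**Figure D3:**
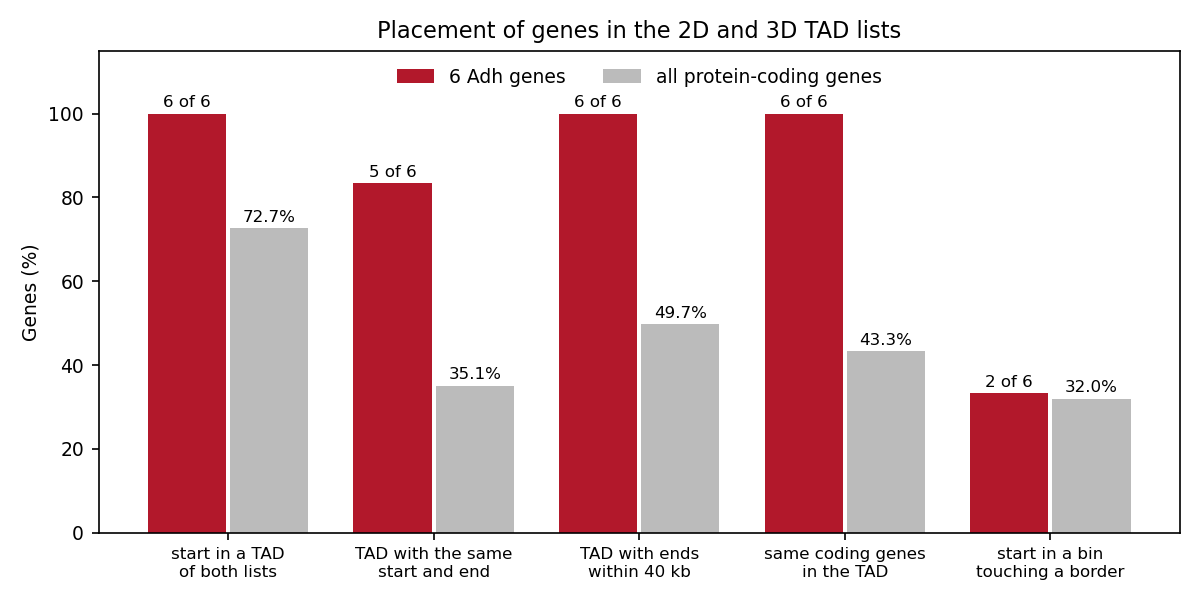
Share of genes (%, vertical axis) that met each of 5 measures in the 2D and 3D lists, for the 6 Adh genes (red, with the count) and all protein-coding genes (grey, with the percent). The Adh genes were above the share of all genes in the first 4 measures and near it in the last, with 2 of 6 against 32.0%.

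In size, the TAD of 280 kb was close to the middle of both lists. In 2D, 56.4% of all TADs were shorter than this and 38.4% longer. In 3D the corresponding shares were 49.8% and 43.5%. It was richer in genes than most. It held 6 protein-coding gene starts in both lists, whereas the median TAD of either list held 3, and 83.2% of the 2D TADs and 79.0% of the 3D TADs held fewer than 6. Among TADs of exactly this size, 80.8% of 234 in 2D and 74.1% of 293 in 3D held fewer than 6. Of its 6 starts, however, 5 were those of Adh genes, which were chosen as a cluster. Its high count therefore follows largely from that choice.

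The TAD of Adh5 (ENSMUSG00000028138.8, chr3:138443093-138455499) started at 138440001 in both cultures. In the 2D-cultured cells it ended at 138640000 and measured 200 kb, and in the 3D-cultured cells it ended at 138600000 and measured 160 kb. From the start of Adh5 to this end there were 197 kb in the first case and 157 kb in the second. The end thus differed by 1 bin, the smallest difference the lists can hold, and without replicate lists it is not known whether such a shift exceeds the difference between replicates. Adh5 shared this TAD with Metap1, which encodes a methionine aminopeptidase, and Eif4e, which encodes the cap-binding factor of translation. These 3 were its protein-coding genes in 2D and in 3D. The bin by which the lists differed, from 138600001 to 138640000, held the starts of 0 protein-coding genes and 2 pseudogenes, Gm9415 and Gm6057.

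The neighbours were followed within 1000 kb on both sides of the cluster. On the Adh7 side, the next TAD, from 137920001 to 138160000, measured 240 kb in both lists and held Dapp1 (an adaptor of phosphoinositide signalling), 1110002E22Rik, Gm5105, Trmt10a and Mttp, the last of which encodes the transfer protein that loads lipid onto apolipoprotein B in hepatocytes. Mttp started 15.0 kb before the border and ran away from the Adh genes. On the Adh5 side, the next TAD held Tspan5, which encodes a tetraspanin, as its one protein-coding gene. Its size was 280 kb in 2D against 320 kb in 3D, since its start was the border that shifted. The TAD of Rap1gds1, which encodes an exchange factor of small GTPases, followed with 160 kb in both lists. After it came the longest TAD of the window, which measured 3120 kb in 2D against 3160 kb in 3D and held 4 protein-coding gene starts. The density of these starts was 21.4 per Mb in the TAD of Adh7 to Adh4 and 20.8 per Mb in the TAD of Mttp. In the TAD of Adh5 it was 15 per Mb in 2D and 18.8 per Mb in 3D. The TADs farther out had fewer starts per Mb on both sides, with 2.83 in the one before the unassigned bins and, in 2D, 3.57 in that of Tspan5, 6.25 in that of Rap1gds1 and 1.28 in the last.

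In this window each list had 7 borders and 7 TADs. All 7 borders of each list had a border of the other list within 40 kb (95% Wilson interval 64.6 to 100%), and 6 of 7 were at the same position. Over all chromosomes, the shares within 40 kb were 81.9% for borders of the 2D list and 88.1% for those of the 3D list. The share of all borders at the same position is not given here, so 6 of 7 cannot be called high or low. All 7 TADs had a counterpart with both ends within 40 kb, and 4 of 7 had identical ends (57.1%, 25.0 to 84.2%). Counted by genes rather than TADs, 49.7% of all protein-coding genes lay in a TAD with such a counterpart and 35.1% in one with identical ends. The share of all TADs with a counterpart is not given here, so these TAD counts cannot be called high or low. The intervals cover counting error only, and neighbouring borders and TADs of a chosen window are not independent draws. The intervals are therefore no test against the shares over all chromosomes. Of the 23 protein-coding genes that start in the window, 20 lay in a TAD in both lists, and these 20 shared it with the same protein-coding genes in 2D and in 3D. Over all protein-coding genes, 72.7% lay in a TAD in both lists and 43.3% shared it with the same protein-coding genes. The 20 genes lie in 7 TADs and are not independent of each other. Within the window the lists differed by the position of 1 border.

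The sequence around the borders was then searched for the core consensus of the CTCF motif, which is 12 bases long and read on both strands. The motif is named rather than spelled here because it contains ambiguous letters. In the stretch from the unassigned bins before Dapp1 to the first bin of the TAD of Rap1gds1 there were 6 matches, of which 3 lay in the TAD of Dapp1 to Trmt10a. The 3 nearest to Adh5 are shown with 9 flanking bases on each side and the match in capitals, each read 5′ to 3′ on its own strand, since they lie in or beside the TAD of Adh5. The first is on the plus strand in an intron of Metap1 at chr3:138463265-138463294, the second on the plus strand between Metap1 and Eif4e at chr3:138506890-138506919, and the third on the minus strand between Eif4e and Tspan5 at chr3:138645553-138645582.
CTCF match in Metap1: ccaggctggCCACCAGAGGGCaagcacaag
CTCF match before Eif4e: agtggatgtCCACTAGAGGGCcaccgggaa
CTCF match before Tspan5: aagtgtttcCCAGCAGGTGGCagagcctcc

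The match in Metap1 lay 23.3 kb after the border between Adh4 and Adh5, in the first bin of the TAD of Adh5, and pointed into that TAD. The match before Eif4e lay 66.9 kb after the same border, also on the plus strand. The match before Tspan5 lay 5.56 kb after the 2D end of the TAD and 45.6 kb after its 3D end, and pointed toward Adh5. It therefore lay outside the TAD of Adh5 in both lists, in the TAD of Tspan5. No match lay in any of the 7 bins of the TAD that holds Adh7 to Adh4. Of the 4 bins on both sides of its ends, 1 held a match, that of Metap1. Over all bins without unknown bases 16.7% held a match, and 34.7% of the bins touching a border of both lists did. The absence of the letters in a bin says nothing about binding of CTCF, which these files do not measure.

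The restriction enzyme MboI cuts at GATC, so the number of these sites in a bin limits how many contacts it can give. The 7 bins of the TAD of Adh7 to Adh4 had a mean of 104 sites (90 to 121), against 100.3 over all bins, and repeats made up 33.4% of their bases (20.8 to 48.7%), against 34.3%. The 5 bins of the 2D TAD of Adh5 had a mean of 92.0 sites (73 to 106) and 28.1% repeats. Repeats made up 48.7% and 41.1% of the last 2 bins before the border between Adh4 and Adh5, and 20.6% and 34.0% of the first 2 bins after it. The number of MboI sites in these 4 bins was 110 and 99 before the border and 83 and 73 after it. Their part in the border call was not tested.

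**Figure D4:**
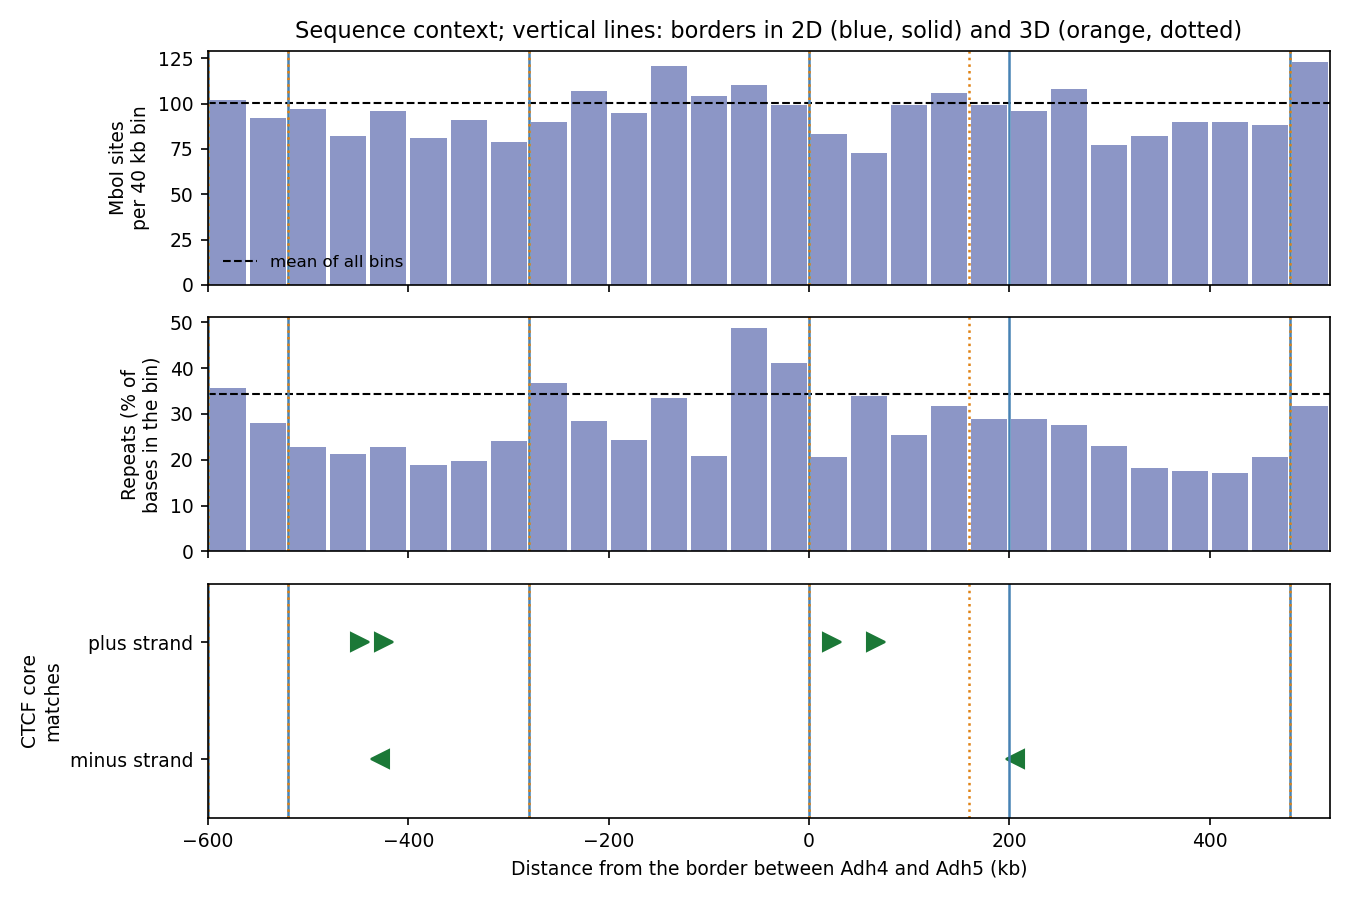
MboI sites per 40 kb bin (upper panel), share of bases in repeats in % (middle panel) and matches to the CTCF core motif by strand (lower panel), against the distance in kb from the border between Adh4 and Adh5. Dashed lines give the mean over all bins and vertical lines the borders, and the 2 lists share every border drawn except that at 200 kb (2D) or 160 kb (3D). No match lies in the TAD just left of 0.

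The cluster was set beside 3 other tandem groups of liver genes. The 3 genes of the albumin family (Alb, Afp and Afm, which encode serum carrier proteins) lay in 1 TAD in both lists, and so did the 3 fibrinogen genes (Fga, Fgb and Fgg, which encode the chains of the clotting protein) and the 8 Ces1 genes (carboxylesterases), which span 360 kb. No border separated the members of these groups in either list, whereas 1 border separated Adh4 from Adh5 in both. The albumin family spans only 92.6 kb and the fibrinogen genes 42.1 kb, against 238 kb for the Adh cluster. These 2 groups thus left less room for a border. The TAD of the Ces1 genes had no counterpart with both ends within 40 kb, but it held the same protein-coding genes in both lists. These groups are few and were not drawn at random, and no test was made between them.

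Enzymes that act with the Adh family but lie elsewhere in the genome were placed in the same way. The list of 15 held aldehyde and retinoid dehydrogenases and other enzymes of alcohol, formaldehyde and acetate metabolism. Of these, 13 started inside a TAD in both lists, 9 in a TAD with identical ends and 10 in one with a counterpart within 40 kb. Over all protein-coding genes the shares were 72.7%, 35.1% and 49.7% in the same order. Aldh2, the mitochondrial enzyme that oxidizes the acetaldehyde made by Adh1, lay in a TAD of 160 kb in both lists. Cyp2e1, the microsomal ethanol oxidase, lay in a TAD of 680 kb in both, and Esd, which acts after Adh5 in formaldehyde oxidation, in one of 320 kb in both. The 5 without a counterpart were Aldh1b1, Aldh3a2, Rdh10, Akr1a1 and Rdh11. Aldh1b1, a mitochondrial aldehyde dehydrogenase, lay in a TAD of 120 kb in 2D and in one of 160 kb with other ends in 3D. Its start lay 0.98 kb from the nearest 3D border, too near for bins of 40 kb to tell on which side it fell. For Aldh3a2, a fatty aldehyde dehydrogenase, the TAD was 240 kb long in the 2D list against 360 kb in the 3D list. The TAD of Rdh10, a retinol dehydrogenase, likewise measured 240 kb in 2D and 360 kb in 3D. It held 3 protein-coding gene starts in either list. Akr1a1, an aldehyde reductase, and Rdh11, a retinal reductase, started outside any TAD in both lists.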

How the data were processed

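The deposited files hold 1 list of TADs per culture, and their values are of another kind than counts, signal or scores: start and end positions in base pairs of mm10. The authors mapped the Hi-C reads with Bowtie 2 (version 2.2.9), pooled the 2 replicates of a culture, corrected the 40 kb matrices by ICE, equalized the contacts of each chromosome between cultures and ran Armatus at a gamma of 0.8. In these lists every TAD lay on the 40 kb grid and within the chromosome lengths of GRCm38.

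Genes came from GENCODE release M21 and were placed by their annotated start. The 6 members, the neighbours (every protein-coding gene in a TAD with a member, and the nearest on each side), the other clusters and the list of 15 enzymes were chosen with earlier results of these data known. The remaining genes of the window, and Aldh2, Cyp2e1 and Esd, were named after their values were seen. A border is a distinct TAD start or end and was shared when the other list had one within 40 kb. Coordinates are 1-based, and a border is named by the last base before it. Promoter windows and genome sequence came from RefSeq (GRCm38.p6), and repeats are its soft-masked bases. Shares of borders and TADs in the window carry 95% Wilson intervals, and shares over all genes, TADs, bins or promoter windows carry none. No test was possible without replicate lists. Tools were Python (3.11.15), numpy (2.4.6), pandas (2.3.3), scipy (1.17.1), pysam (0.24.0) and matplotlib (3.10.9), and the measures were tested on simulated lists. The closing section gives the alternatives, which were other gene positions, border definitions, distances, windows and TAD sizes.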

Additional observations from a re-analysis of the deposited data

How the results depend on the processing

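Of 60 values under the first set of alternatives, 57 stayed within 1.5 times (counts), within the 95% Wilson interval (shares) or within 40 kb (distances) of the reported value, and 3 moved. Some of these values could not move, such as the shares of 100% when the distance was widened to 80 kb. With TADs of at least 200 kb only, members were held by 1 TAD in 3D, since the 160 kb TAD of Adh5 falls below this size. With identical ends required, 57.1% of the window's TADs had a counterpart, whichever list was the starting point. Alternatives on the gene start and on the border were chosen after seeing the data, and 4 of their 24 values moved. That count understates the change, because by the limit of 1.5 times a shift from 5 to 6 or to 4 members in 1 TAD did not count as moved. Moving the border could also not change how many members lay inside a TAD. With the outermost RefSeq start of each gene, all 6 members fell into 1 TAD in 2D and 1 in 3D, because the upstream start of Adh5 lies before the border. With the border between Adh4 and Adh5 moved 1 bin toward Adh5, the number was also 1 in both lists, and with it moved 1 bin toward Adh4, the TAD of Adh7 held 4 members and that of Adh5 held 2. The separation of Adh5 from the other members therefore rests on which start is used and on a border placed to 1 bin. No paired analysis was possible because the replicates of each culture were pooled before TADs were called, and no replicate could be left out in turn. The depth behind each TAD is unknown.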

Other observations

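The TAD of Adh7 to Adh4 also held the starts of 4 annotated genes that do not encode proteins. Adh6-ps1, a transcribed pseudogene of the family on the plus strand, lay between Adh6b and Adh4 and measured 20.9 kb. The antisense gene 0610031O16Rik, 29.7 kb long, covered the whole body of Adh7, and the antisense gene Gm16559, 25.6 kb long, overlapped the last 9.29 kb of Adh1. Gm23467, a small nuclear RNA gene, lay within Adh6b. All 4 were placed in the same TAD in 2D and in 3D.

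In both lists a stretch of 80 kb between TADs, from 137840001 to 137920000, lay 520 kb before the border between Adh4 and Adh5. It held the starts of H2afz, which encodes a histone variant, Dnajb14, which encodes a co-chaperone, and Lamtor3, which encodes a part of the Ragulator complex. These were the 3 protein-coding genes of the window whose starts lay outside TADs, and the body of Lamtor3 ran on into the next TAD.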
